A study of Mus musculus with 4 samples.

Results

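The common gamma chain receptors were examined by RNA-seq in CD4+ T cells from spleen, as the 8 receptor chain genes *Il2rg*, *Il2ra*, *Il2rb*, *Il15ra*, *Il7r*, *Il4ra*, *Il9r* and *Il21r*. The genes were taken as the chains of this family, a choice made with earlier results of these data known, and all 8 were found among the 55367 gene symbols of the count tables and passed the low-count filter that left 12403 genes for testing. The libraries came from C57BL/6 mice, 2 with the genotype label WT and 2 with the label *Satb1* conditional knockout (cKO), and were counted as separate samples because the labels number them as replicates. The design text names *Satb1* F/F; ThPOK-cre mice for the CD4+ side of the study. ThPOK-cre acts in cells committed to the CD4 lineage, so both conventional CD4+ T cells and regulatory T (Treg) cells are targeted. Labels give no age, no sex and no Cre or floxed status for the WT mice, and do not say whether a library is 1 mouse or a pool, so p-values measure only the spread between these libraries.

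Each receptor of this family pairs the shared gamma chain with private chains that bind the cytokine. The shared chain, encoded by *Il2rg*, joins IL-2 receptor beta (*Il2rb*) and alpha (*Il2ra*, also CD25) to bind IL-2, and IL-2 receptor beta with the IL-15 receptor alpha chain (*Il15ra*) to bind IL-15. It pairs with *Il7r* for IL-7, with *Il4ra* for IL-4, with *Il9r* for IL-9 and with *Il21r* for IL-21. Signals pass through the kinases JAK1 and JAK3 to STAT transcription factors. IL-7 keeps naive T cells alive, while Treg cells carry high CD25 and little IL-7 receptor and depend on IL-2.

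Some facts of the libraries bear on what follows. Total gene counts lay between 4495902 and 6555699, and on the TMM-scaled totals of tested genes a floor of 3 counts came to between 0.459 and 0.672 counts per 1000000 (CPM). The 7 CD4 T cell markers summed to between 4202 and 4724 CPM in every library, and 1 of them, *Zbtb7b*, which encodes ThPOK, was called higher, with a log2 fold change of 0.66 and an edgeR adjusted p of 0.0117. *Cd8a* had between 20 and 36 counts and *Cd8b1* between 106 and 277, the latter called lower with -0.91 and 0.0201. *Satb1* had a log2 fold change of -0.05 with an SE of 0.12 and an edgeR adjusted p of 0.877, so its gene-level counts do not tell the genotypes apart, and every direction given here follows the library labels. *Xist*, expressed from the inactive X chromosome, had at least 4235 counts in WT libraries and at most 9 in cKO libraries, and *Ddx3y*, on Y, had 0 counts in WT and at least 525 in cKO, so sex and genotype label cannot be told apart. In whole CD4+ cells, more RNA per cell and more cells of a type that expresses a gene cannot be told apart either.

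To show the DNA at chains that the results turn on, stretches upstream of RefSeq start sites are given. They are those of *Il7r*, *Il4ra* and *Il2ra*, which had the highest fold changes with all libraries, and of the shared chain *Il2rg*. Sequences come from RefSeq on GRCm38.p6, read 5′ to 3′ on the strand of the gene, and bases in exons of protein-coding GENCODE transcripts were left out. The *Il7r* stretch lies at chr15:9529877-9530126 (minus strand), *Il4ra* at chr7:125552021-125552119 (plus, only positions -250 to -152 from the start), *Il2ra* at chr2:11642542-11642791 (plus) and *Il2rg* at chrX:101268256-101268505 (minus). In GENCODE the *Il7r* gene spans 9505788 to 9530176, so its printed stretch lies inside the gene by that annotation. Capitals mark matches to any of 4 motifs, defined in the next paragraph.
Il7r: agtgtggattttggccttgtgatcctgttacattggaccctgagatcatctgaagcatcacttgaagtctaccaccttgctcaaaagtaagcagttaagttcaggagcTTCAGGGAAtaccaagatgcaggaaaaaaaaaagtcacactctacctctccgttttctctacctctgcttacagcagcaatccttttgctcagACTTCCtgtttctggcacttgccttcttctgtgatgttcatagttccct
Il4ra: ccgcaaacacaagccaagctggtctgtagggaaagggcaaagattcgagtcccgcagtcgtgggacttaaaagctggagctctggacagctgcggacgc
Il2ra: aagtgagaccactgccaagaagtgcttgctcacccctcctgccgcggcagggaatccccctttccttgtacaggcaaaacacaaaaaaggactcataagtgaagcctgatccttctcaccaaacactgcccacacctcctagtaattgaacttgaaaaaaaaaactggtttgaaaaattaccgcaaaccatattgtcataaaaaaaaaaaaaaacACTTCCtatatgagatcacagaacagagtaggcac
Il2rg: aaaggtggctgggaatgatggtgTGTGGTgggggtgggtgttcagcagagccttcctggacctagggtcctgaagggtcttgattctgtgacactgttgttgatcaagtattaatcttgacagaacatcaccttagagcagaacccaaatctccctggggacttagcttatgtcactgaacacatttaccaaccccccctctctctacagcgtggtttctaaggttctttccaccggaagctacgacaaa

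Motifs were searched on both strands in windows of 300 bases, 250 before and 50 after the start, in the 8 windows found for 7 of the chains. They were TTCNNNGAA (STAT factors), GTAAACA (forkhead factors), GGAAGT (ETS factors) and TGTGGT (RUNX factors), which were found in 8.30%, 3.65%, 23.8% and 16.8% of all 32851 windows. TTCNNNGAA was matched in the *Il7r* window and in no other of these windows, starting at position -142 from the start site. GGAAGT was matched in *Il7r* at -49, in *Il2ra* at -35 and in *Il15ra* at 41. TGTGGT was matched in *Il7r* at 3, *Il2rg* at -227, *Il9r* at -83 and *Il21r* at -33, the last sharing bases with the GTAAACA match of *Il21r* at -38. The *Il4ra* window held no match to any of them. Bases A and T made up 57.3% of the *Il2ra* window, 54.3% of *Il7r*, 49.7% of *Il2rg* and 38.0% of *Il4ra*, against a median of 47.3% over all windows. A match is a description of letters and no evidence of binding.

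Of the 8 chains, *Il7r* and *Il4ra* were up-regulated in libraries labelled cKO and no chain was down-regulated. That is 2 of 8 called by edgeR's quasi-likelihood test, with the adjusted p set to stay under 0.05, where 4.3% of all 12403 tested genes were called, 2.35% higher and 1.95% lower. At an unadjusted p under 0.05 there were 4 chains, all of them higher, where 19.1% of all tested genes lay under that value in either direction, and DESeq2, the edgeR exact test and the likelihood ratio test called 0 chains lower. The median log2 fold change of the 8 chains was 0.33, beside -0.0015 over all tested genes, and 7 of the 8 values were above 0, where 49.8% of all tested genes were. In 5 chains both cKO libraries lay above both WT libraries and in no chain below, whereas 24.8% of all tested genes had the cKO libraries above, 25.4% below and 50.3% either way. The plot of CPM by library shows these 5 chains and the 3 whose genotypes overlap.

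**Figure D1:**
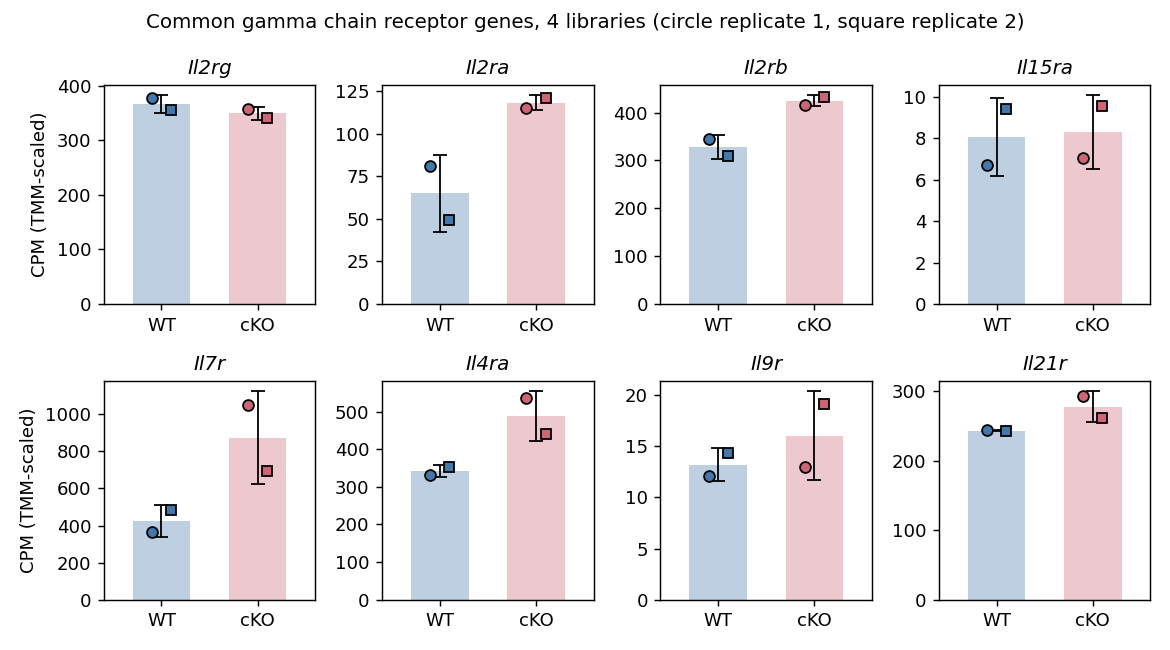
Expression of the 8 receptor chain genes in CPM on TMM-scaled library sizes, 1 panel per gene with its own axis from 0. Bars are means, whiskers the SD of 2 libraries, and points the libraries. Both cKO libraries lie above both WT libraries for *Il2ra*, *Il2rb*, *Il7r*, *Il4ra* and *Il21r*, and the genotypes overlap for *Il2rg*, *Il15ra* and *Il9r*.

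The shared chain was examined first. *Il2rg* (chromosome X, 101264378 to 101268255, minus strand of GRCm38) had 378 CPM in WT 1 and 355 CPM in WT 2, and 358 and 341 CPM in the libraries cKO 1 and cKO 2. The libraries of the genotypes overlapped. On the log2 scale the change was -0.07 (SE 0.10, edgeR adjusted p 0.762), and the interval at a level of 0.95 ran from a fold of 0.82 to 1.11. The data do not tell apart changes of the shared chain within these bounds. Of its 2387 exonic bases, 728 are shared with *Gm20489* on the same strand, where reads cannot be given to 1 gene by position alone.

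*Il7r*, the private chain for IL-7, showed the highest fold change of the family with all 4 libraries, though *Il2ra* was above it without WT 1, at log2 1.27 against 0.85, and without cKO 1, at 0.87 against 0.71. The gene (chromosome 15, 9505788 to 9530176, minus strand) had 365 CPM in WT 1 and 486 in WT 2 against 1052 in cKO 1 and 697 in cKO 2. Both cKO libraries were above both WT libraries, and cKO 1 stood highest. The WT mean was 425 ± 85.3 CPM (SD, n = 2) and the cKO mean 874 ± 251 CPM (SD, n = 2). The log2 fold change of 1.04 had an SE of 0.20, a 0.95 interval of 0.582 to 1.502 and an edgeR adjusted p of 0.0257. The call was kept in each fit without a library, where the log2 fold change ran from 0.71 without cKO 1 to 1.31 without cKO 2. DESeq2 gave the same direction and an adjusted p of 0.0772, which does not pass, the highest of a range over all alternatives that began at 3.69e-19.

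*Il4ra*, the private chain for IL-4, rose by a smaller factor. It (chromosome 7, 125552120 to 125579474, plus strand) had 331 CPM in WT 1 and 352 in WT 2 against 535 in cKO 1 and 440.0 in cKO 2, with no overlap. The means were 341 ± 15.3 CPM in WT (SD, n = 2) and 487 ± 67.0 CPM in cKO (SD, n = 2), a log2 fold change of 0.51 with an SE of 0.12, a fold interval of 1.18 to 1.72 and an edgeR adjusted p of 0.0490. This call is at the edge of the threshold. It was lost without X and Y genes, at 0.0511, without WT 1, at 0.271, and without WT 2, at 0.323, and adjusted p over all alternatives ran from 1.18e-07 to 0.323. The log2 fold change stayed between 0.37 and 0.65 in fits without a library. Of its 6002 exonic bases, 571 overlap *Gm44876* on the opposite strand, and the strand setting of the counting is not stated.

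**Figure D2:**
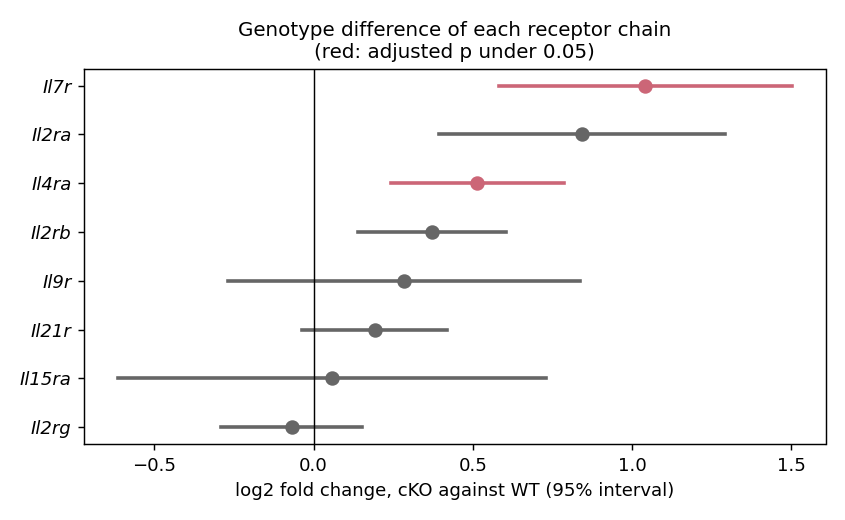
Log2 fold change of each receptor chain in libraries labelled cKO against WT, with the 0.95 interval from the edgeR quasi-likelihood fit. Points run from -0.07 for *Il2rg* to 1.04 for *Il7r*, red marks the called genes *Il7r* and *Il4ra*, and the intervals of *Il2ra* and *Il2rb* also lie above 0 before adjustment over all genes.

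The chains of the IL-2 receptor came next. *Il2ra*, which encodes CD25 (chromosome 2, 11642807 to 11693193, plus strand), had 81.2 and 49.1 CPM in WT 1 and WT 2, and 115 and 121 CPM in cKO 1 and cKO 2. The cKO libraries lay close together above both WT libraries, and the WT libraries differed from each other. The log2 fold change reached 0.84 (SE 0.20), the fold interval was 1.32 to 2.45 and the edgeR adjusted p 0.0509, just outside the threshold. With all libraries kept, *Il2ra* passed in 8 of 9 alternatives and missed without X and Y genes, at 0.0538. When WT 2 was left out the log2 fold change was 0.54 and the adjusted p 0.248, and when WT 1 was left out 1.27 and 1.41e-05, so its size rests on which WT library is used.

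*Il2rb*, the chain that IL-2 and IL-15 share (chromosome 15, 78479256 to 78495271, minus strand), had 345 CPM in WT 1 and 310 CPM in WT 2, and 417 and 433 CPM in cKO 1 and cKO 2. The genotypes did not overlap, and the libraries of each lay close together. The log2 fold change of 0.37, with an SE of 0.10 and a fold interval of 1.10 to 1.52, did not pass at an edgeR adjusted p of 0.0849. Over its alternatives the adjusted p ran from 0.00352 to 0.693.

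*Il15ra*, which presents IL-15, was a low transcript in these cells. The gene (chromosome 2, 11705290 to 11734317, plus strand) had 44, 42, 37 and 45 counts in WT 1, WT 2, cKO 1 and cKO 2. The log2 fold change of *Il15ra* was 0.06 (SE 0.30, edgeR adjusted p 0.944), with a fold interval of 0.65 to 1.66, and its sign turned in fits without a library. At this depth the data do not tell apart differences of *Il15ra* within that interval.

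*Il21r*, the private chain for IL-21 (chromosome 7, 125603429 to 125633570, plus strand), had 244 and 243 CPM in WT 1 and WT 2, and 294 and 263 CPM in cKO 1 and cKO 2. Both cKO libraries were higher by a margin that did not pass, with a log2 fold change of 0.19, an SE of 0.10 and an edgeR adjusted p of 0.343. It passed only in the fit without cKO 2, at 0.0247. *Il9r*, the private chain for IL-9 (chromosome 11, 32187541 to 32200279, minus strand), had 79, 64, 68 and 90 counts in the same order. The genotypes overlapped, and the log2 fold change of 0.28 (SE 0.24) had an edgeR adjusted p of 0.587.

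To compare chains with each other, counts were divided by exonic length and given as reads per kilobase per 1000000 reads (RPKM), as a description. In WT libraries the mean levels were 153 RPKM for *Il2rg*, 91.2 for *Il7r*, 76.5 for *Il2rb*, 73.3 for *Il21r*, 56.9 for *Il4ra*, 11.4 for *Il2ra*, 2.67 for *Il9r* and 1.82 for *Il15ra*. In that order the neighbours *Il7r* and *Il2rb*, and *Il2rb* and *Il21r*, overlapped between libraries, and all other neighbours were apart. In cKO libraries *Il7r* came first with 188 RPKM, followed by *Il2rg* with 146, *Il2rb* with 99.1, *Il21r* with 83.7, *Il4ra* with 81.2, *Il2ra* with 20.7, *Il9r* with 3.24 and *Il15ra* with 1.87. Here *Il7r* and *Il2rg* overlapped, since *Il7r* had 149.4 RPKM in cKO 2 and *Il2rg* had 149.9 in cKO 1, and *Il21r* and *Il4ra* overlapped as well. How the bases that *Il2rg* shares with *Gm20489* were counted, and so their part in its level per length, was not tested.

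Since every receptor of the family needs the shared chain, each private chain was also set against *Il2rg* within its own library, a measure free of library scaling that was chosen after the values were seen. *Il7r* had 0.967 and 1.37 reads per *Il2rg* read in WT 1 and WT 2, and 2.94 and 2.04 in cKO 1 and cKO 2. *Il4ra* had 0.875, 0.992, 1.49 and 1.29, *Il2rb* 0.914, 0.874, 1.16 and 1.27, and *Il2ra* 0.215, 0.138, 0.322 and 0.356. *Il21r* had 0.646, 0.685, 0.822 and 0.770. In these 5 chains both cKO libraries were above both WT libraries, as were 31.6% of the 12402 other tested genes set against *Il2rg* in the same way, and an exact two-sided permutation test gave p = 0.333 for each, the smallest it can give with 2 libraries against 2. *Il15ra* and *Il9r* overlapped, with an exact permutation p of 0.667 each. These are 7 ratios with 1 denominator in common, so they are not independent. Whether the chains changed unequally was not tested, and a ratio does not show that *Il2rg* stayed constant.

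**Figure D3:**
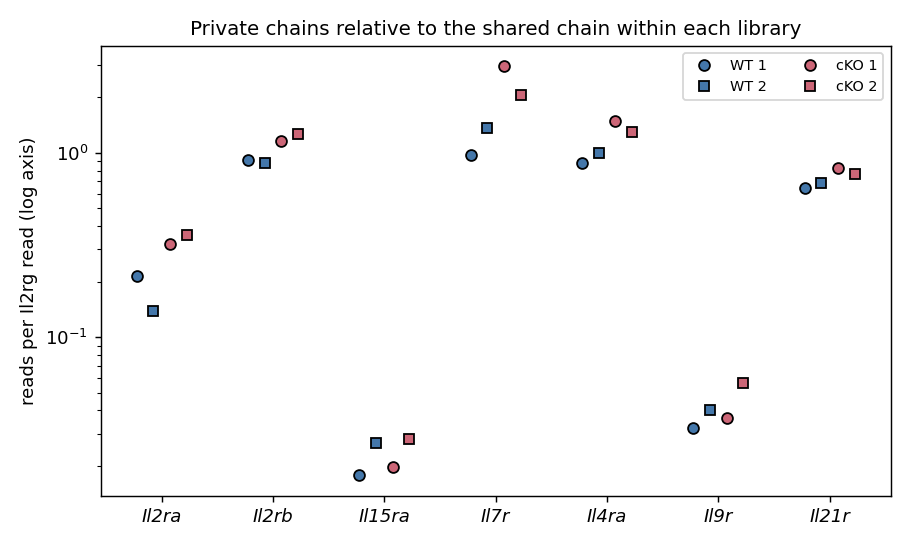
Reads of each private chain per *Il2rg* read within each of the 4 libraries, on a log axis, with circles for replicate 1 and squares for replicate 2. *Il7r* lies at 0.967 and 1.37 in WT and at 2.94 and 2.04 in cKO, while *Il15ra* and *Il9r* lie under 0.06 in all libraries and overlap between genotypes.

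Pairs of these genes are neighbours in the genome, which allowed a look along the chromosome. *Il2ra* and *Il15ra* are 12.1 kb apart on chromosome 2, with log2 fold changes of 0.84 and 0.06. *Il4ra* and *Il21r* are 24.0 kb apart on chromosome 7, with 0.51 and 0.19. Whether the members of a pair differ in their response was not tested. Of the 22 other tested genes within 100 kb of a chain, edgeR called 0, with 1 at an unadjusted p under 0.05. DESeq2, the exact test and the likelihood ratio test called 0 as well. Over all tested genes edgeR called 4.3%, and 19.1% had an unadjusted p under 0.05. At such a share of calls, 0 among 22 genes says little about the regions. The log2 fold changes of the 22 genes ran from -0.82 for the globin gene *Hba-a1* to 0.85 for *Kctd17*, 40.0 kb from *Il2rb*. *Kctd17* had the lowest edgeR adjusted p of them, at 0.194. *Spef2*, the only tested gene in reach of *Il7r*, had -0.04 with an adjusted p of 0.967. *Gtf3c1*, a transcription factor subunit gene beside *Il21r*, had 0.20 with an adjusted p of 0.323.

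The rest of the pathway was then examined by role, over 68 genes of which 59 were tested. Of these, 3 were called higher and 1 lower, or 6.78% against the 4.3% of all genes, with a median change of 0.09 on the log2 scale. Of the 6 ligand genes, *Il21* alone passed the low-count filter. *Il9* had 0 counts in all libraries, which allows up to between 0.459 and 0.672 CPM, *Il7* and *Il15* had at most 1 count, *Il4* at most 3 and *Il2* between 2 and 15. *Il21* had 14, 6, 19 and 24 counts in WT 1, WT 2, cKO 1 and cKO 2 and a log2 fold change of 1.26 that did not pass, with an edgeR adjusted p of 0.149. *Crlf2*, which joins the IL-7 receptor chain to bind TSLP, had a log2 fold change of 0.10 and an adjusted p of 0.800.

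None of the 4 JAK kinase genes passed in edgeR with all libraries, and DESeq2, the exact test and the likelihood ratio test called 0 as well, although 3 of 4 had an unadjusted p under 0.05, beside 19.1% of all tested genes. *Jak3*, whose product docks on the shared chain, had 184 and 187 CPM in WT and 261 and 204 in cKO, a log2 fold change of 0.33 and an edgeR adjusted p of 0.198. Its value rests on the cKO library used, with 0.14 and an adjusted p of 0.358 without cKO 1 and 0.49 and 6.24e-05 without cKO 2. *Jak1*, which docks on private chains, had 0.14 and 0.577. Their medians lay above 0, as did those of the STAT genes: 0.28 on the log2 scale for the 4 kinases and 0.24 for the 5 STAT genes. Among the STAT genes edgeR called 0, DESeq2 0, and the exact and likelihood ratio tests 1 each, with 2 of 5 at an unadjusted p under 0.05. *Stat3*, used by IL-21 and named after its values were seen, had the lowest adjusted p of these genes. It had 329 and 322 CPM in WT and 461 and 390 in cKO, a log2 fold change of 0.38 and an edgeR adjusted p of 0.0973. *Stat5a* and *Stat5b*, used by IL-2, IL-7, IL-9 and IL-15, had log2 fold changes of -0.06 and 0.24 with edgeR adjusted p of 0.800 and 0.299. *Stat5b* had 0.11 without cKO 1, with an adjusted p of 0.431, and passed without cKO 2, with 0.35 and 0.00230. *Stat6*, used by IL-4, had 311 CPM in each WT library and 384 and 378 in cKO, with 0.29 and 0.131, and passed without cKO 1, at 0.0272, and without cKO 2, at 0.00785.

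Of the 9 tested adaptor and PI3K genes, *Pik3r1*, the regulatory subunit of PI3 kinase, was called. It had 294 and 281 CPM in WT 1 and WT 2, and 468 and 376 CPM in cKO 1 and cKO 2, with a log2 fold change of 0.55, an SE of 0.12 and an edgeR adjusted p of 0.0422. Like *Il4ra*, it was highest in cKO 1 and lost its call without WT 1, at 0.0922, or without WT 2, at 0.377, where its log2 fold changes were 0.59 and 0.52. *Irs2*, an adaptor of the IL-4 receptor also named after its values were seen, had 0.60 with an adjusted p of 0.0632. Of the 8 feedback inhibitor genes, edgeR, DESeq2, the exact test and the likelihood ratio test called 0, with 1 at an unadjusted p under 0.05. *Cish*, induced by STAT5, had 74.6, 63.0, 84.2 and 97.8 CPM in WT 1, WT 2, cKO 1 and cKO 2, a log2 fold change of 0.40 and an edgeR adjusted p of 0.140, and passed without cKO 1, with 0.50 and 0.0147. *Socs1* had 0.07 and 0.834, and *Socs3* -0.17 and 0.771, and both turned sign in fits without a library. Without cKO 1 *Socs3* was called lower, with -0.68 and 0.00200, and without cKO 2 it had 0.21 and 0.199.

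Genes downstream went both ways. Of 14 STAT5 and survival target genes 2 were called higher and 1 lower, with a median log2 fold change of -0.17. *Tnfrsf4* (OX40) had 37.6 and 29.8 CPM in WT and 54.9 and 59.7 in cKO, a log2 fold change of 0.75 with an edgeR adjusted p of 0.0264. *Tnfrsf18* (GITR) had 58.9 and 65.6 CPM in WT and 100.2 and 90.6 in cKO, with 0.62 and 0.0232. Both are costimulatory receptors and also stand on the Treg marker list. *Pim2*, a survival kinase encoded on chromosome X, fell from 67.6 and 88.7 CPM to 52.4 and 45.5, with a log2 fold change of -0.67 and an adjusted p of 0.04997, just under the threshold. The calls of *Tnfrsf4* and *Pim2* were lost without WT 2, at 0.273 and 0.426, with log2 fold changes of 0.60 and -0.47. That of *Tnfrsf18* was lost without WT 1 or WT 2, at 0.165 and 0.142, with 0.55 and 0.69. *Bcl2*, the survival gene that IL-7 maintains, had 299 and 323 CPM in WT and 281 and 279 in cKO, with a log2 fold change of -0.15 and an edgeR adjusted p of 0.453.

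Known regulators of *Il7r* or *Il2ra* were listed to set beside them. Of the 17, all tested, edgeR called 0 and DESeq2 0, the exact and likelihood ratio tests 1 each, and 4 had an unadjusted p under 0.05, a share close to the 19.1% of all tested genes. *Foxo1*, an activator of *Il7r* in naive T cells, had 488 and 498 CPM in WT and 524 and 511 in cKO, with a log2 fold change of 0.07 and an edgeR adjusted p of 0.756. The 17 log2 fold changes ran from -0.16 to 0.38. *Foxp3*, known to act on both genes, stands on the Treg marker list and not on this one, and had a log2 fold change of 1.86 with an edgeR adjusted p of 0.000447. The part of any of these genes in the receptor results was not tested.

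**Figure D4:**
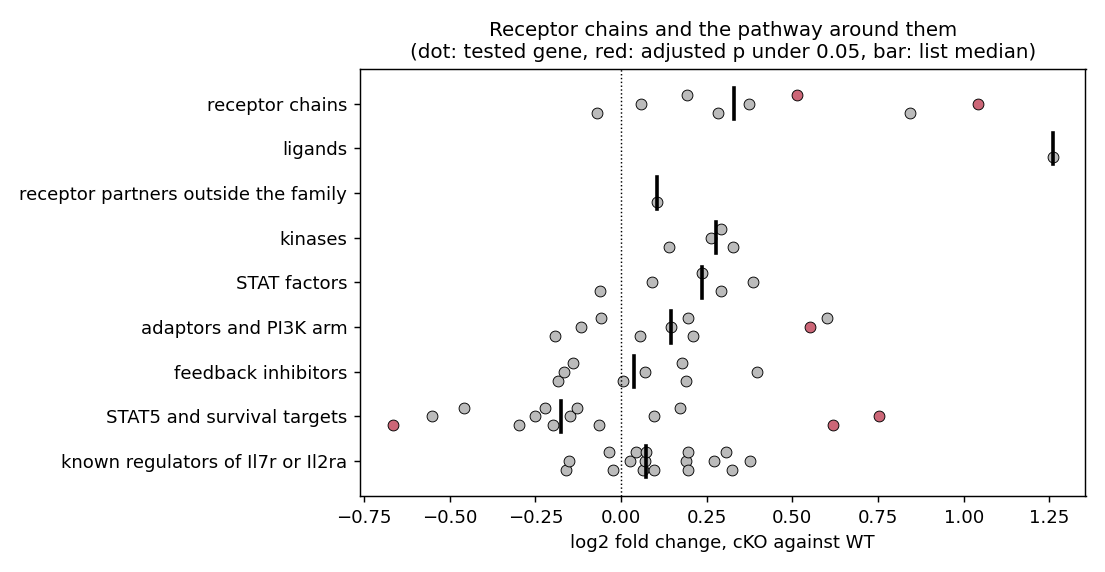
Log2 fold change in cKO against WT of each tested gene, by role in the pathway. Dots are genes, red marks an edgeR adjusted p under 0.05 and bars are list medians, which are 0.33 for the receptor chains and -0.17 for the STAT5 and survival targets.

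Markers of cell types that carry these receptors also differed with genotype. *Foxp3*, listed as a Treg marker, had 142 and 121 CPM in WT and 405 and 547 in cKO. The paper reports *Foxp3* derepression in conventional CD4+ T cells that lack SATB1. *Foxp3* counts in cKO libraries therefore need not measure Treg cells. The 14 Treg markers, *Foxp3* among them, summed to 814 and 740.1 CPM in WT libraries and to 1172 and 1418 in cKO, with 5 called higher and 1, *Itgae*, lower. The 9 naive T cell markers summed to between 8559 and 9223 CPM in WT and between 6552 and 8469 in cKO, with *Ccr7* and *Dapl1* called lower. The sums of 12 activated or memory markers overlapped, with 1004 to 1125 CPM in WT and 870.3 to 1429 in cKO. Of the 11 tested, *S100a6*, *Ccl5* and *Tbx21* were called lower and none higher, and the sum in cKO 2 was led by *Ahnak* with 519 CPM and *Itgb1* with 433.

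Markers of cells other than CD4+ T cells were measured as well. The 7 NK cell markers, whose cells express much *Il2rb*, summed to 122 and 131 CPM in WT and 41.4 and 51.3 in cKO, with 4 of 5 tested called lower and *Ncr1* at 0 in WT 2 and cKO 2 and *Klre1* at 0 in both WT libraries. The CD8 pair *Cd8a* and *Cd8b1* summed to 47.7 and 58.5 CPM in WT and 34.3 and 26.8 in cKO. The 10 B cell markers summed to 39.9 and 48.6 CPM in WT, 199 in cKO 1 and 78.6 in cKO 2, with *Pax5* and *Cd74* called higher and *Ebf1* at 0 in cKO 2. The 11 myeloid markers summed to 40.7 and 50.2 CPM in WT, 109 in cKO 1 and 62.9 in cKO 2, with 3 called higher and 3 at 0 in WT 1. Thus cKO 1, the library highest in *Il7r*, *Il4ra* and *Il21r*, was also the highest in B cell and myeloid markers. Without cKO 1 the log2 fold changes were 0.71 for *Il7r*, 0.37 for *Il4ra* and 0.11 for *Il21r*. The B cell and myeloid sums of cKO 2 were also above those of both WT libraries. Leaving out cKO 1 therefore does not make the genotypes alike in these markers. The part of the Treg, naive, NK, B cell and myeloid markers in the receptor results was not tested.

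**Figure D5:**
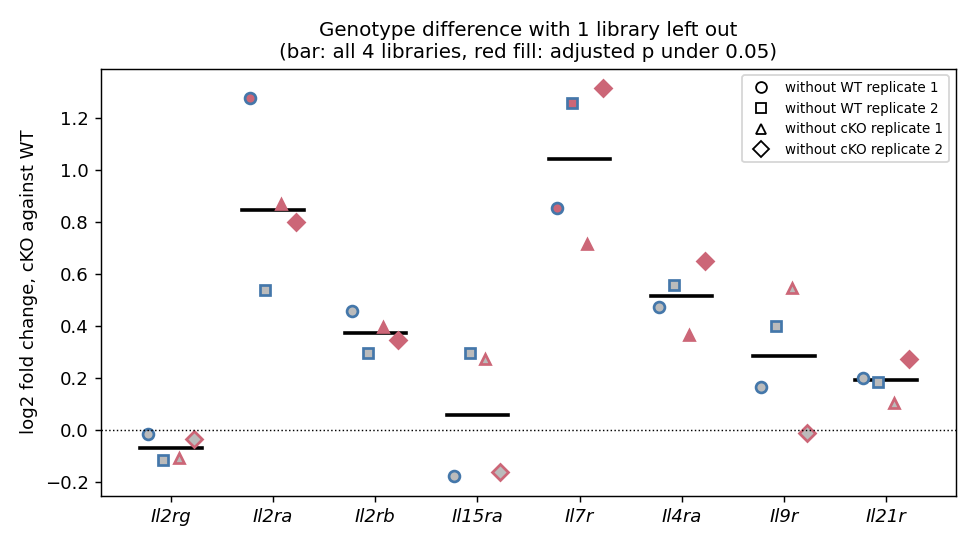
Log2 fold change of each receptor chain with 1 library left out, as points, against the value with all 4 libraries, as a bar. Red fill marks an edgeR adjusted p under 0.05, and *Il7r* passes in all 4 fits between 0.71 and 1.31, while *Il15ra* and *Il9r* change sign.

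The genes whose 4 values were most like those of a called chain were found by the Euclidean distance of centred log2 CPM over the 4 libraries. For *Il7r* these were *Sh3d19*, *Chst11* and *Ctif*, at distances of 0.123, 0.134 and 0.168. For *Il4ra* they were *Gm45187*, *A430103D13Rik* and *Kctd12*, at 0.0247, 0.0319 and 0.0463. All 6 are weakly expressed, with at most 64 counts in a library, and none was called in the edgeR test, where their lowest adjusted p was 0.156, that of *Sh3d19*. With 4 libraries such a likeness is a description only.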

How the data were processed

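Gene counts of 4 RNA-seq libraries, 2 labelled WT and 2 labelled cKO, were used. Per the labels, reads were aligned to mm10 with HISAT2 2.1.0 and counted with HTSeq 0.11.1, and the authors deposited raw read counts per gene symbol, without scaling. The gene annotation and strand setting are not given in the sources used here. HTSeq summary lines were left out, and reads outside features made up 59.4% to 64.5% of reads with a single alignment.

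Analysis was carried out with edgeR 4.0.16 and DESeq2 1.42.0 in R 4.3.3. Genes were filtered by filterByExpr, libraries scaled by TMM, and genotype tested with the two-sided quasi-likelihood F test without covariates, with Benjamini-Hochberg adjustment over 12403 genes and calls at an adjusted p under 0.05. The SE is the absolute log2 fold change over the square root of F. Floors cover counting error alone, and intervals also the spread over these libraries. Positions and union exonic lengths came from GENCODE M21 (GRCm38, the same assembly as mm10), matched by symbol for 53186 genes, and promoter windows from RefSeq GRCm38.p6.

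All members were named, with *Satb1* and *Foxp3*, called genes and fixed key genes of each pathway list, tested genes within 100 kb of a member, and the 3 nearest profiles of each called member, with 0.5 CPM added before taking log2. Members and lists were chosen with earlier results of these data known. Fits were tested on simulated data. Scaling, filter, test, threshold, replicate block, X and Y genes and each library were varied. Replicate numbers name no shared animal, and same-numbered libraries deviated together by r = 0.0642 over genes, with no test.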

Additional observations from a re-analysis of the deposited data

How the results depend on the processing

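The number of called chains was 2, *Il7r* and *Il4ra*. With RLE size factors, with total counts and with a filter of at least 1 CPM in 2 libraries it was 3, each time with *Il2ra* added. DESeq2 called 2 chains, *Il2ra* and *Il4ra*. The number was 4 without a low-count filter, in the edgeR likelihood ratio test and in the edgeR exact test, each time with *Il2ra* and *Il2rb* added. It was 1 without X and Y genes, 0 at an adjusted p under 0.01, and 1 to 5 in fits without a library, with 1 without WT 2, 4 without cKO 1 and 5 without cKO 2. With the replicate block 4 chains were called. The number of called genes, 533 of 12403 tested, became 1367 of 23880 tested without a low-count filter. Over the same 12403 genes it was 1096 in the likelihood ratio test and 1044 in the exact test. There it was 153 at an adjusted p under 0.01 and 1165 with the replicate block. Settings that called more chains than the main fit are to be read beside the number of genes they called. Fits without a library called 180 to 1790 genes, with 180 without WT 2, 1491 without cKO 1 and 1790 without cKO 2. For these counts the cause was not tested. A fit that leaves out a library assumes that the lone library of a genotype varies like the other genotype's pair.

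Among the chains, direction was kept in all alternatives by *Il7r*, *Il4ra*, *Il2ra*, *Il2rb*, *Il21r* and *Il2rg*. *Il2rg*, *Foxp3* and *Pim2*, on chromosome X, have no value without X and Y genes. When a library was left out, log2 fold changes ran from -0.18 to 0.29 for *Il15ra*, from -0.011 to 0.55 for *Il9r*, from -0.13 to 0.042 for *Satb1*, from -0.0070 to 0.16 for *Socs1* and from -0.68 to 0.21 for *Socs3*, all of which changed sign. Of 309 values of named genes under alternatives, 267 kept their direction and side of the threshold, 24 passed it newly, 10 no longer passed and 8 changed sign. *Il15ra* and *Il9r* had the fewest counts of the chains, 37 to 90 a library.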
